A study of Mus musculus with 2 samples.

Results

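The genes described here encode matrix proteins, matrix proteases and their inhibitors, and they are 10 of the 32285 genes counted in both libraries. The members were listed by name: *Fn1*, *Ecm1*, *Vcan* and *Thbs1* for the matrix proteins, *Mmp12*, *Mmp14*, *Mmp19* and *Adam8* for the proteases, and *Timp1* and *Timp2* for the inhibitors. Each was followed through every leukocyte class of brown adipose tissue (BAT) as CPM, a scale on which all UMIs of a class sum to 1e6, of the summed unique molecular identifiers (UMIs) of a class, and as the share of cells with at least 1 UMI. All 10 had UMIs in the AdipoΔ/Δ library, and 9 had UMIs in the control library.

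The study asked how BAT leukocytes change when adipocytes lose ATGL, the lipase that starts triglyceride breakdown and is encoded by *Pnpla2*. CD45+ DAPI- cells were sorted from BAT and sequenced with the 10x Chromium 3′ kit, in 1 library per condition. Both libraries came from male C57Bl/6 mice that carried floxed *ATGL* alleles together with *AdipoQ*-CreERT2, a tamoxifen-inducible Cre driven in adipocytes. The control mice received vehicle, and the AdipoΔ/Δ mice received 200 µL of tamoxifen at 10 mg/ml by intraperitoneal injection every 2 days for 1 week, followed by 2 weeks of rest. The mice were 16 weeks old by their labels and younger by the study's text, and the number of mice behind each library was not stated. Since Cre was driven in adipocytes, *Pnpla2* in the sorted leukocytes (37.1 CPM in the control and 42.2 CPM in the AdipoΔ/Δ library) does not check the deletion.

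With 1 library per condition, no difference between the conditions could be tested, and condition and library cannot be told apart. Intervals are 95% intervals that cover counting error only. The control library held 2279 cells with a median of 3678 UMIs, and the AdipoΔ/Δ library 2016 cells with a median of 3942 UMIs, and 4 cell barcodes occurred in both. Cells were clustered without the members among the features, and classes were named from markers. Macrophage-like cells made up 6.67% of the control cells (152 cells) and 27.6% of the AdipoΔ/Δ cells (556 cells), in a *Folr2* class (61 and 137 cells), a *Fcrls* class (49 and 176), a *Gpnmb* class (13 and 87) and cells without a subset (29 and 156). The *Gpnmb* class held 30716 of the 580580 macrophage-like UMIs in the control and 1150212 of 3648822 in the AdipoΔ/Δ library. Ratios over all macrophage-like cells therefore compare pools of different make-up. Monocyte-like cells numbered 759 and 484. The *Fcrls* class was named from *Fcrls*, *Lyz1*, *Retnla* and the other genes of its list, of which none was at 0 in either library. General macrophage markers were low there: *C1qa* stood at 185 and 126 CPM against 3240 and 3949 CPM in the *Folr2* class, and *Ccr2*, a receptor of monocytes, stood at 1289 and 994 CPM. The list of 10 general macrophage markers summed to 1238 and 1051 CPM, with 2 and 0 at 0. This was below the 1465 and 2133 CPM of Ly6Chigh monocyte-like cells, so the class is macrophage-like by its own list only. The control *Gpnmb* class rests on 13 cells with a median of 1348 UMIs, against 11934 UMIs in the AdipoΔ/Δ library, so its control levels are the least certain ones given here. Adipocyte markers summed to 1074 and 267.8 CPM in that class, with 6 and 4 of the 7 at 0, and the control sum was *Fabp4* alone. Platelet markers summed to 358 and 6.09 CPM, with 5 of the 6 at 0 in both libraries, so these sums were *Ppbp* alone. The part of these genes in the ratios of the *Gpnmb* class was not tested.

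The extracellular matrix is a mesh of collagens, fibronectin and proteoglycans that holds the cells of a tissue in place and binds growth factors. Metalloproteinases of the MMP family cut its proteins, ADAM proteases release proteins from cell surfaces, and the secreted TIMP inhibitors block the active site of metalloproteinases. In adipose tissue the matrix is rebuilt as adipocytes enlarge, and macrophages are known as a source of both matrix proteins and proteases.

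Promoter sequence was given for 7 of the 10 members, and not for *Fn1*, *Thbs1* and *Mmp19*. The windows below are the 120 bases before the start of *Ecm1* and of each of 2 starts of *Mmp12*, the members with the largest whole-library ratios among those with a sequence and with UMIs in both libraries. They are RefSeq sequences of the build GRCm38.p6, written 5′ to 3′ on the strand of the gene, and capitals mark the motifs found.
*Ecm1*, chr3:95739570-95739689, minus strand: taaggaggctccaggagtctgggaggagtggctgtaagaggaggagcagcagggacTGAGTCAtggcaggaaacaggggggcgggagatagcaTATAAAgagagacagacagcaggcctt
*Mmp12*, first start, chr9:7344277-7344396, plus strand: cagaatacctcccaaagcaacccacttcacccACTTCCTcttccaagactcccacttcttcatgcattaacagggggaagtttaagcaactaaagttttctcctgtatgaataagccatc
*Mmp12*, second start, chr9:7347254-7347373, plus strand: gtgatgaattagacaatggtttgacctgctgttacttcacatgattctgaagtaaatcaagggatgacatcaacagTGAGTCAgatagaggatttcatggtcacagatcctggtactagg

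The 3 motifs were searched on both strands in the 250 bases before each start. TGACTCA (reverse TGAGTCA), a site bound by AP-1, lay 64 bases before the start of *Ecm1* and 44 bases before the second start of *Mmp12*, and 4.46% of 32851 promoters held it. AGGAAGT (reverse ACTTCCT), a core bound by the myeloid factor PU.1, lay 88 bases before the first start of *Mmp12* and 175 bases before that of *Timp1*, against 7.69% of promoters. TATAAA (reverse TTTATA) lay 27 bases before the start of *Ecm1*, against 12.4%. *Vcan*, *Mmp14*, *Adam8* and *Timp2* held none of the 3 in this window. A match describes the letters and shows no binding.

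*Fn1* (ENSMUSG00000026193, chromosome 1, 71585520 to 71653200, minus strand, GRCm38) encodes fibronectin, the glycoprotein that links integrins to collagen and fibrin. It was highest in *Fcrls* macrophage-like cells in both libraries, at 4442 CPM (4197 to 4698) in the control and 5753 CPM (5626 to 5882) in the AdipoΔ/Δ library, where 100% and 98.9% of the cells had a UMI. Ly6Chigh monocyte-like cells came next, at 1626 CPM (1577 to 1675) and 1753 CPM (1679 to 1829). In each library these 2 classes stood above every other class, and the *Fcrls* class stood above the Ly6Chigh class by 2.73-fold (2.56 to 2.91) in the control and 3.28-fold (3.13 to 3.44) in the AdipoΔ/Δ library.

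In the 2 classes with the highest levels, *Fn1* differed by less than 2-fold. The ratio of AdipoΔ/Δ over control was 1.30 (1.22 to 1.38) in *Fcrls* cells and 1.08 (1.02 to 1.14) in Ly6Chigh cells, where it was 0.966 with a mitochondrial limit of 2%. After each cell was thinned to 1000 UMIs the shares with a UMI were 97.96% and 94.6% in *Fcrls* cells and 68.5% and 62.4% in Ly6Chigh cells, so they did not follow the CPM upwards. In intermediate monocyte-like cells *Fn1* stood at 314 CPM in the control and 662 CPM in the AdipoΔ/Δ library, a ratio of 2.11 (1.79 to 2.48). The thinned shares there were 19.0% and 20.5%, and with a mitochondrial limit of 2% the ratio was 0.842. In this class the list of 10 macrophage markers summed to 1607 CPM in the control and 4540 CPM in the AdipoΔ/Δ library, with 1 and 0 of the 10 at 0, and *C1qa* stood at 7.01 and 473 CPM. Their part in the *Fn1*, *Mmp14* and *Timp2* ratios of intermediate cells was not tested. Macrophage-like cells without a subset were the next class after the Ly6Chigh cells in both libraries, at 475 and 949 CPM (2.00, 1.32 to 3.16). Their median depths were 1526 and 827 UMIs, and 20 of 29 and 59 of 156 cells had at least 1000 UMIs. General macrophage markers summed to 4731 and 4419 CPM there, with 3 and 0 of 10 at 0. Ly6Chigh monocyte markers summed to 3325 and 1319 CPM and neutrophil markers to 2774 and 370 CPM. Their part in the ratios of this class was not tested. *Folr2* cells stood at 330.3 and 257 CPM (0.779, 0.596 to 1.03), with 47.9% of the control UMIs in 1 cell and a ratio of 1.25 without the top cells, and the *Gpnmb* class at 195 CPM from 6 UMIs and 523 CPM (2.68, 1.22 to 7.33). Lower down, Ly6Clow monocyte-like cells held 15.8 and 84.0 CPM (5.33, 2.72 to 11.4), NK cell-like cells 16.7 and 120.2 CPM, and T cell-like cells 16.0 and 23.0 CPM. Of the NK cell-like UMIs in the AdipoΔ/Δ library, 35.0% came from 1 cell. *Retnla*, a marker used to name the *Fcrls* class, stood at 77.4 and 309 CPM in Ly6Clow cells. In NK cell-like cells *Retnla* stood at 29.9 and 258 CPM, and in T cell-like cells at 45.1 and 130 CPM. Its part in the *Fn1* values of these classes was not tested. T cells are not known as a source of fibronectin, and 2.81% and 8.0% of the T cell-like cells had a UMI at median depths of 3475.5 and 3613 UMIs. The 4.45% and 15.5% of Ly6Clow cells with a UMI, at median depths of 2332 and 1958 UMIs, stood above those shares by less than the Ly6Chigh cells did.

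The class that held most *Fn1* was not the same in the libraries. In the control, 69.5% of its 6061 UMIs lay in Ly6Chigh monocyte-like cells and 20.2% in *Fcrls* macrophage-like cells. In the AdipoΔ/Δ library, 63.1% of 12372 UMIs lay in *Fcrls* cells and 17.3% in Ly6Chigh cells. Fibroblasts also make fibronectin, and their list of 7 markers summed to 25.3 CPM in the control and 13.3 CPM in the AdipoΔ/Δ *Fcrls* cells, with 6 and 5 of the 7 at 0, *Pdgfra* and *Lum* among them. The control sum was *Pi16* alone, and the AdipoΔ/Δ sum was *Pi16* with 2 UMIs of *Dcn*. The part of fibroblast transcripts in *Fn1* was not tested.

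**Figure D1:**
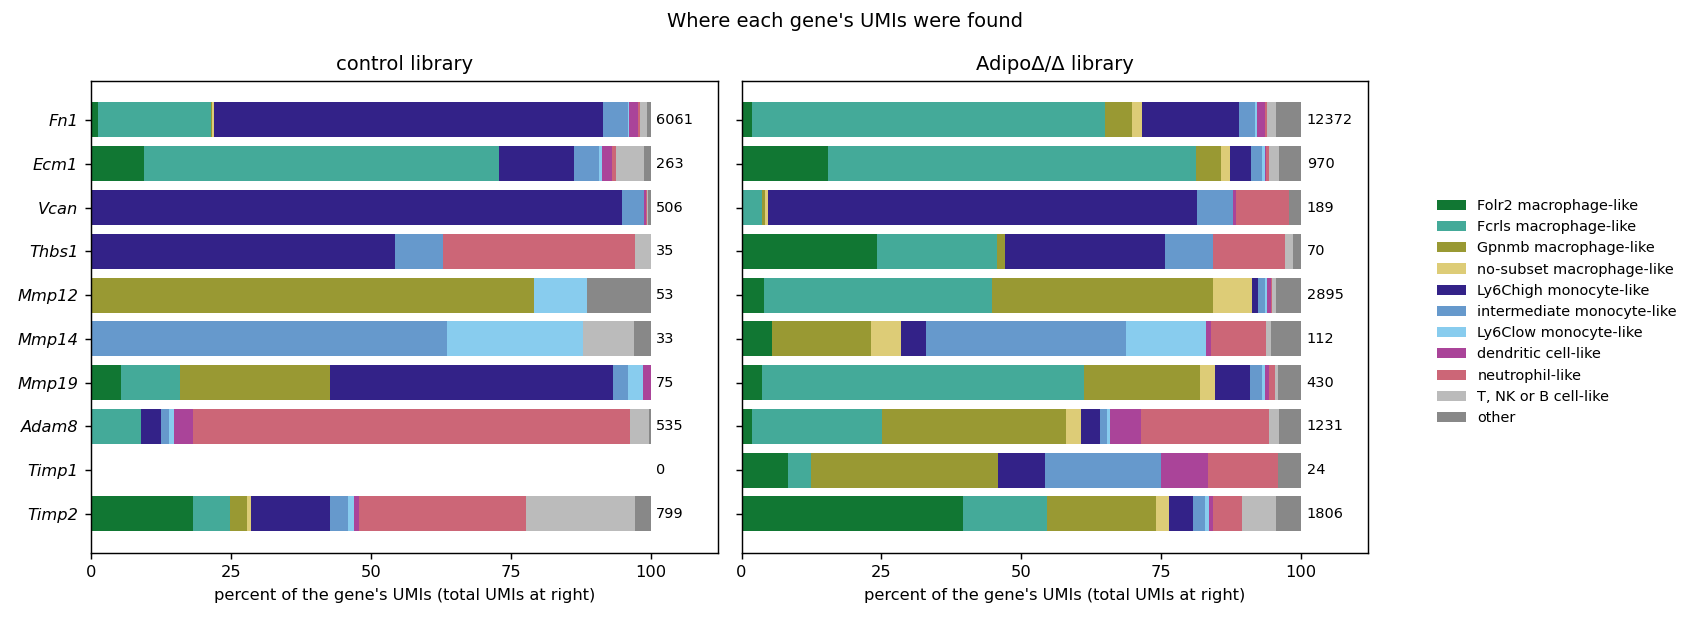
Percent of the UMIs of each gene (x axis) found in each leukocyte class, for the control library (left) and the AdipoΔ/Δ library (right), with the gene's total UMIs at the end of each bar. The largest block of *Fn1* is the Ly6Chigh class in the control (69.5%) and the *Fcrls* class in the AdipoΔ/Δ library (63.1%), and *Timp1* has no bar in the control.

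*Ecm1* (ENSMUSG00000028108, chromosome 3, 95734147 to 95739569, minus strand) encodes extracellular matrix protein 1, a secreted glycoprotein. *Fcrls* macrophage-like cells held 605 CPM (516 to 704) in the control and 470.3 CPM (435 to 508) in the AdipoΔ/Δ library, with 63.5% and 65.8% of the gene's UMIs. *Folr2* macrophage-like cells were the next class in both, at 113 and 163 CPM, and their intervals did not overlap those of the *Fcrls* class. Within *Fcrls* cells the ratio was 0.778 (0.655 to 0.928), and thinned shares were 34.7% and 32.1%. The direction turned when cells over 3 times the median UMIs of their class were left out, with an *Ecm1* ratio of 1.21. Over all macrophage-like cells it was 0.701 (0.599 to 0.824), and 1.05 to 1.17 under 3 other settings. In *Folr2* cells it was 1.44 (0.942 to 2.30), and 0.927 at a clustering resolution of 0.5. Ly6Chigh monocyte-like cells held 13.5 CPM in the control and 31.1 CPM in the AdipoΔ/Δ library, a ratio of 2.30 (1.42 to 3.76), with thinned shares of 1.11% and 4.85%. Of the Ly6Chigh cells with *Ecm1*, 93.8% in the control and 96.3% in the AdipoΔ/Δ library also had *Fn1*, and in *Fcrls* cells 100% and 99.2%. Most cells of both classes had *Fn1*, at 327 of 370 and 146 of 173 Ly6Chigh cells and 49 of 49 and 174 of 176 *Fcrls* cells.

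*Vcan* (ENSMUSG00000021614, chromosome 13, 89655312 to 89742509, minus strand) encodes versican, a large proteoglycan that binds hyaluronan. It was a gene of Ly6Chigh monocyte-like cells, which held 94.9% of its 506 UMIs in the control and 76.7% of its 189 UMIs in the AdipoΔ/Δ library. Its level there was 185 CPM (169 to 202) in the control and 119 CPM (100.1 to 140) in the AdipoΔ/Δ library, a ratio of 0.641 (0.529 to 0.773), the same direction as the thinned shares of 12.8% and 10.3%. Intermediate cells held 23.4 and 22.9 CPM, and Ly6Clow cells 0 UMIs in both. No *Vcan* UMI was found in the control macrophage-like cells, which allows up to 5.17 CPM, and 9 UMIs (2.47 CPM) were found in the AdipoΔ/Δ ones. The 18 neutrophil-like UMIs of the AdipoΔ/Δ library came from 1.16% of the cells. Fibroblasts make versican too, and their 7 markers summed to 80.6 and 58.9 CPM in the Ly6Chigh cells, with *Lum*, *Pdgfra*, *Dpt*, *Clec3b* and *Mfap5* at 0 in both libraries. The control sum was *Pi16* with 2 UMIs of *Dcn*, and the AdipoΔ/Δ sum was *Pi16* alone. The part of fibroblast transcripts in *Vcan* was not tested.

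*Thbs1* (ENSMUSG00000040152, chromosome 2, 118111876 to 118127133, plus strand) encodes thrombospondin 1, a matrix glycoprotein of platelets and monocytes that can activate latent TGF-β. It was the sparsest matrix gene, with 35 UMIs in the control and 70 in the AdipoΔ/Δ library. Ly6Chigh monocyte-like cells held 19 and 20 of these (7.33 and 16.4 CPM, ratio 2.23, 1.13 to 4.42), and neutrophil-like cells 12 and 9. The 17 UMIs of the AdipoΔ/Δ *Folr2* class all came from 1 cell, and 60.0% of the 15 UMIs of the *Fcrls* class came from 1 cell. The list of 6 platelet markers summed to 12.0 CPM in these *Folr2* cells and 36.1 CPM in these *Fcrls* cells, with 4 and 5 of the 6 at 0, and its part in *Thbs1* was not tested.

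**Figure D2:**
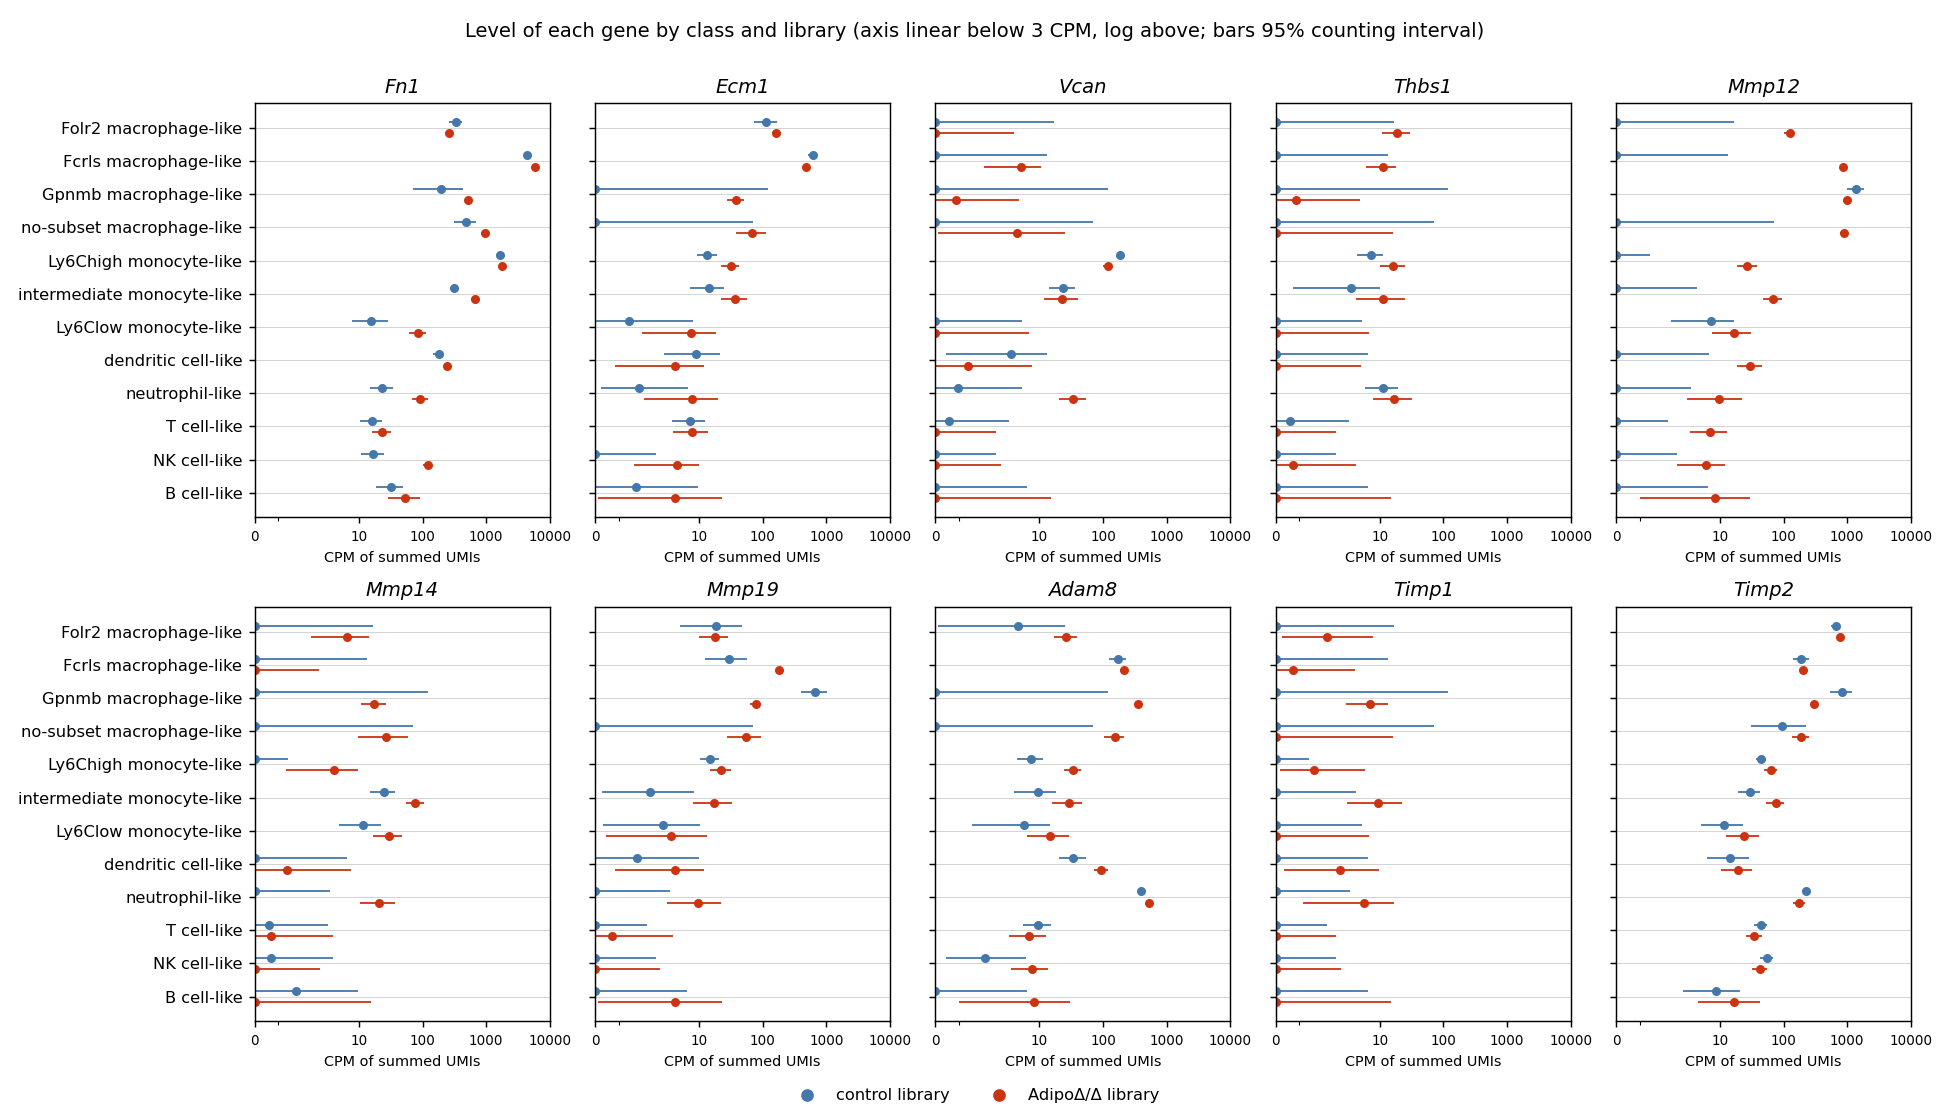
CPM of summed UMIs (x axis, linear below 3 CPM and logarithmic above) of each of the 10 genes in 12 leukocyte classes, for the control library (blue) and the AdipoΔ/Δ library (red), with 95% counting intervals as bars. *Fn1*, *Ecm1* and, in the AdipoΔ/Δ library, *Mmp19* are highest in the *Fcrls* macrophage-like class, *Vcan* in the Ly6Chigh monocyte-like class, *Adam8* in neutrophil-like cells and *Mmp14* in intermediate monocyte-like cells.

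*Mmp12* (ENSMUSG00000049723, chromosome 9, 7344381 to 7369499, plus strand) encodes macrophage elastase, which cuts elastin. Of all members it differed most between the libraries, with 53 UMIs in the control and 2895 in the AdipoΔ/Δ library (4.93 and 256 CPM, ratio 51.9, 39.6 to 69.5). In the control, 42 of the 53 UMIs lay in the 13 *Gpnmb* macrophage-like cells, each of which had at least 1 UMI (1367 CPM, 985 to 1848). In the AdipoΔ/Δ *Gpnmb* class the level was 995 CPM (939 to 1055) with a UMI in 54.0% of the cells, and the ratio was 0.728 (0.535 to 1.02).

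Outside the *Gpnmb* class the control held almost none. *Fcrls* macrophage-like cells had 0 UMIs in the control, which allows up to 10.9 CPM, and 871 CPM (822 to 923) in the AdipoΔ/Δ library, at least 80.2-fold higher against 3 UMIs, in 33.5% of the cells and in 20.2% after thinning. The cell with the most UMIs held 25.8% of these, and without it the bound was 60.2-fold. The AdipoΔ/Δ level of *Mmp12* in these cells was 443 CPM with a mitochondrial limit of 2% and 476 CPM without integration of the libraries. *Folr2* cells had 0 UMIs against 124 CPM (at least 9.15-fold higher), and cells without a subset 0 UMIs against 887 CPM (at least 15.6-fold, and 5.15-fold without the cell that held 67.8% of the UMIs). The latter class was shallow, at median depths of 1526 and 827 UMIs, and its monocyte and neutrophil markers differed between the libraries as given above. Monocyte-like cells had 1.21 and 33.6 CPM, a ratio of 27.8 (11.4 to 88.2). Of the 5 control UMIs behind it 80.0% came from 1 cell, and without the top cell of each library the *Mmp12* ratio was 99.7 (17.2 to 4007). All 5 lay in Ly6Clow cells, where the *Mmp12* ratio was 2.29 (0.690 to 8.71). T cell-like cells, which are not known to make this protease, had 0 UMIs in the control and 6.96 CPM in the AdipoΔ/Δ library, and 2.55% of them had a UMI there against 8.67% of the Ly6Chigh cells. Over all macrophage-like cells the ratio was 10.0 (7.38 to 13.9). It was 5.04 with a mitochondrial limit of 2% and 15.5 with at least 500 detected genes.

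*Mmp19* (ENSMUSG00000025355, chromosome 10, 128790910 to 128800824, plus strand) encodes a secreted metalloproteinase of basement membrane proteins. In *Fcrls* macrophage-like cells it stood at 29.0 CPM (12.5 to 57.1) in the control and 182 CPM (160.1 to 206) in the AdipoΔ/Δ library, a ratio of 6.29 (3.14 to 14.7), with a UMI in 10.2% and 28.4% of the cells. The thinned shares were closer, at 4.08% and 7.14%. The *Gpnmb* class went the other way, from 20 UMIs in 13 control cells (651 CPM) to 77.4 CPM, a ratio of 0.119 (0.0725 to 0.204). In Ly6Chigh monocyte-like cells the values were 14.7 and 22.1 CPM (1.51, 0.885 to 2.53), and without the cell with the most UMIs the ratio was 1.03. It was 0.604 with a mitochondrial limit of 2% and 0.807 without integration of the libraries, so its direction turned. These Ly6Chigh cells held 50.7% of the gene's 75 UMIs in the control, and *Fcrls* cells held 57.4% of 430 in the AdipoΔ/Δ library. All 50 AdipoΔ/Δ *Fcrls* cells with *Mmp19* and all 59 with *Mmp12* also had *Fn1*, in a class where 174 of 176 cells had it.

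*Mmp14* (ENSMUSG00000000957, chromosome 14, 54431612 to 54445364, plus strand) encodes a membrane-anchored collagenase that also activates pro-MMP2. It was highest in intermediate monocyte-like cells in both libraries, at 24.5 CPM (15.2 to 37.5) in the control and 76.4 CPM (54.6 to 104) in the AdipoΔ/Δ library, a ratio of 3.11 (1.79 to 5.56), beside the higher macrophage markers of that class given above. Ly6Clow monocyte-like cells followed with 11.5 and 29.2 CPM, and in the control the intervals of these 2 classes overlapped. Over all monocyte-like cells the ratio was 3.80 (2.41 to 6.14). Macrophage-like cells had 0 UMIs in the control, which allows up to 5.17 CPM, and 32 UMIs (8.77 CPM) in the AdipoΔ/Δ library. Of these 32, 20 lay in the *Gpnmb* class and 0 in the *Fcrls* class.

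*Adam8* (ENSMUSG00000025473, chromosome 7, 139978932 to 139992562, minus strand) encodes a membrane-anchored protease of granulocytes and other leukocytes. Neutrophil-like cells were its highest class, at 391 CPM (354 to 431) in the control and 533 CPM (472 to 599) in the AdipoΔ/Δ library, a ratio of 1.36 (1.17 to 1.59), with thinned shares of 31.7% and 41.4%. They held 77.9% of its UMIs in the control and 22.8% in the AdipoΔ/Δ library. *Fcrls* macrophage-like cells stood at 170.2 and 210.1 CPM (1.23, 0.904 to 1.72, and 0.993 without cells over 3 times the median UMIs), and their thinned shares went the other way, at 20.4% and 11.3%. The *Gpnmb* class had 0 UMIs in the control, which allows up to 97.7 CPM, and 351 CPM (318 to 387) in the AdipoΔ/Δ library, at least 3.60-fold higher. Dendritic cell-like cells held 34.1 and 92.8 CPM (2.72, 1.62 to 4.798), and Ly6Chigh cells 7.33 and 33.6 CPM (4.58, 2.60 to 8.35). Without integration of the libraries the *Adam8* ratio was 2.10 in Ly6Chigh cells and 1.97 over all monocyte-like cells, where it was 3.73 (2.39 to 5.93) otherwise.

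The inhibitors were unlike each other in level and place. *Timp1* (ENSMUSG00000001131, chromosome X, 20870166 to 20874735, plus strand), a secreted inhibitor induced by many inflammatory stimuli, had 0 UMIs in the whole control library, which allows up to 0.279 CPM. It had 24 UMIs in the AdipoΔ/Δ library (2.12 CPM), at least 7.60-fold higher, with 8 in the *Gpnmb* class, 5 in intermediate monocyte-like cells and 3 in neutrophil-like cells. *Timp2* (ENSMUSG00000017466, chromosome 11, 118301069 to 118355740, minus strand) inhibits metalloproteinases and also takes part in the activation of pro-MMP2 by MMP14. Among classes of at least 20 cells, which leaves out the 13 control *Gpnmb* cells, it was highest in *Folr2* macrophage-like cells, at 660.6 CPM (558 to 777) in the control and 779 CPM (723 to 838) in the AdipoΔ/Δ library, a ratio of 1.18 (0.986 to 1.42), with thinned shares of 34.5% and 49.6%. At a clustering resolution of 0.5 this *Timp2* ratio was 0.752.

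Elsewhere *Timp2* stood at 188 and 199.8 CPM in *Fcrls* cells (1.06, 0.786 to 1.46, and 0.921 with a mitochondrial limit of 5%) and at 223 and 176 CPM in neutrophil-like cells (0.790, 0.615 to 1.01). In the *Gpnmb* class it was 814 CPM in the control, from 25 UMIs, and 305 CPM in the AdipoΔ/Δ library, a ratio of 0.375 (0.2498 to 0.587). Intermediate monocyte-like cells held 29.2 and 74.5 CPM, a ratio of 2.55 (1.50 to 4.397), with thinned shares of 2.11% and 3.41%, in the class whose summed macrophage markers were 1607 and 4540 CPM. In T cell-like cells 14.5% and 13.8% had a *Timp2* UMI, and the intermediate cells had one in 14.1% and 25% at median depths of 5568 and 5232.5 UMIs.

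**Figure D3:**
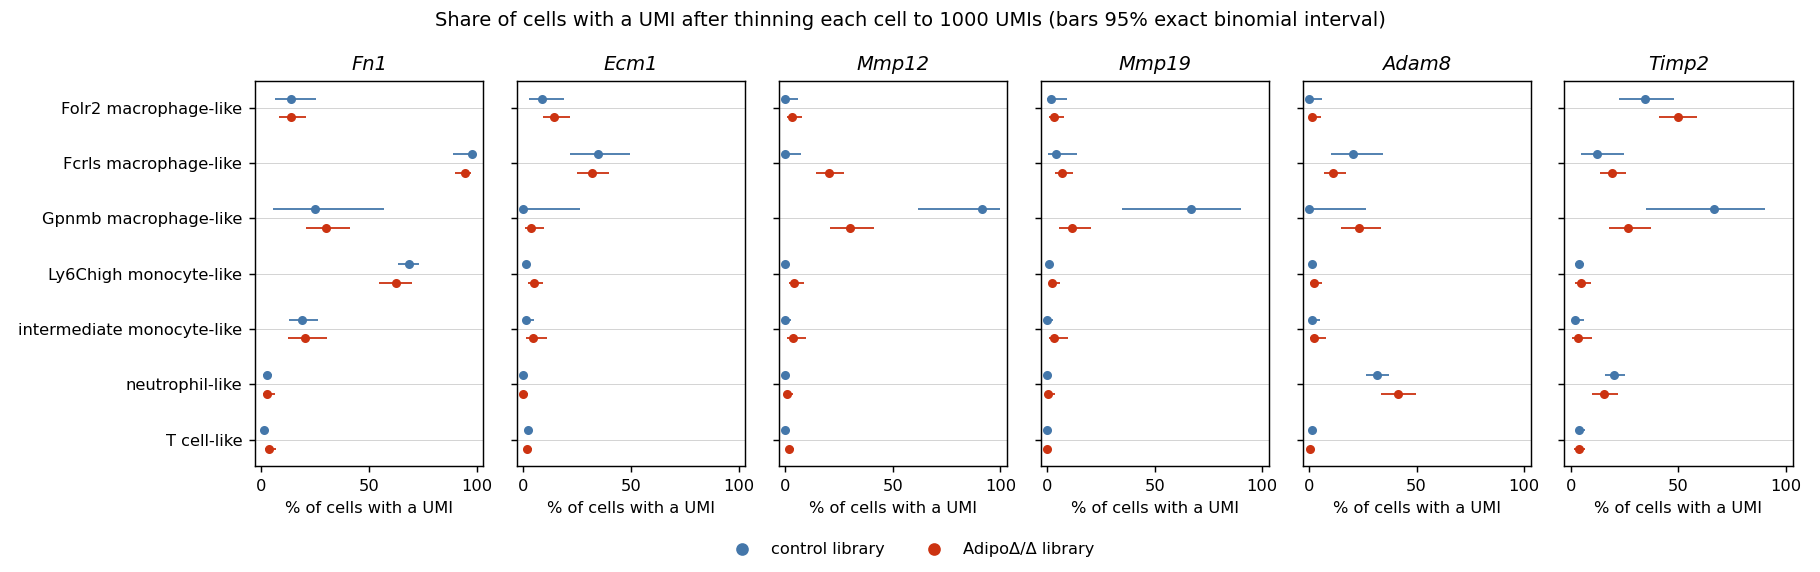
Percent of cells with a UMI of 6 of the genes after each cell was thinned to 1000 UMIs (x axis), by class, for the control library (blue) and the AdipoΔ/Δ library (red), with 95% exact binomial intervals. *Fn1* was found in 97.96% and 94.6% of *Fcrls* macrophage-like cells, and *Mmp12* in 20.2% of the AdipoΔ/Δ ones and none of the control ones.

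Counted over the members, more were higher than lower in the AdipoΔ/Δ library. A gene was counted in a class with at least 50 UMIs over both libraries, so it could enter through 1 library alone. The genes set beside the members met the same limit. Among macrophage-like cells 6 of the 10 had at least 50 UMIs over both libraries. Of these, *Mmp12* and *Adam8* were at least 2-fold higher in the AdipoΔ/Δ library, where 7.11% of the 6880 genes with as many UMIs were, and 0 were at least 2-fold lower, where 1.8% were. The pools differ in make-up, and by class *Adam8* stood at 1.23 in *Fcrls* cells and at least 3.60 in the *Gpnmb* class. *Mmp12* stood at 0.728 in the *Gpnmb* class and at least 80.2 in *Fcrls* cells. Among monocyte-like cells 8 had at least 50 UMIs, and *Ecm1*, *Mmp12*, *Mmp14* and *Adam8* were at least 2-fold higher, against 2.01% of 7474 genes. None of the 8 was at least 2-fold lower, against 0.468%. With a mitochondrial limit of 5% the count was 2, since *Ecm1* stood at 1.85 and *Mmp12* had 49 UMIs. Without integration it was also 2, since *Adam8* stood at 1.97 and *Mmp12* had 48 UMIs. The monocyte-like pools differ in make-up too, with 370 and 173 Ly6Chigh, 142 and 92 intermediate and 247 and 219 Ly6Clow cells. By class *Mmp12* stood at 2.29 (0.690 to 8.71) in Ly6Clow cells, which held all 5 control UMIs, and at least 23.3 in Ly6Chigh cells. Of the 61 AdipoΔ/Δ UMIs of *Mmp14*, 40 lay in intermediate cells, whose macrophage markers were higher there. The median log2 ratio of the members was 0.47 in macrophage-like cells, against 0.12 for all genes with at least 50 UMIs, and 0.96 in monocyte-like cells, against 0.09. In *Fcrls* cells 2 of 6 members were at least 2-fold higher (*Mmp12* and *Mmp19*, against 6.41% of genes), and in the *Gpnmb* class 2 of 5 were higher (*Fn1* and *Adam8*, against 13.7%) and 2 lower (*Mmp19* and *Timp2*, against 10.9%). None of the 6 in *Fcrls* cells was at least 2-fold lower, against 0.683%.

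In the other classes the members past 2-fold were all higher in the AdipoΔ/Δ library. In *Folr2* cells 1 of 4 was (*Mmp12*, against 5.3% of genes higher and 1.18% lower), and among macrophage-like cells without a subset 1 of 2 (*Mmp12*, against 17.8% and 5.71%). Ly6Chigh cells had 2 of 6 (*Ecm1* and *Adam8*, against 1.65% and 0.648%), intermediate cells 3 of 3 (*Fn1*, *Mmp14* and *Timp2*, against 3.08% and 2.32%, with *C1qa* at 7.01 and 473 CPM) and Ly6Clow cells 1 of 1 (*Fn1*, against 1.6% and 0.444%). Dendritic cell-like cells had 1 of 2 (*Adam8*, against 2.65% and 0.596%), neutrophil-like cells 1 of 3 (*Fn1*, against 6.12% and 1.21%) and NK cell-like cells 1 of 2 (*Fn1*, against 0.819% and 0.301%). The *Fn1* ratio in neutrophil-like cells, 3.96 (2.40 to 6.69), was below 1 under 3 other settings, and 48.0% of its control and 38.8% of its AdipoΔ/Δ UMIs there came from 1 cell each. *Retnla*, a marker of the *Fcrls* class, stood at 49.7 and 282 CPM in neutrophil-like cells, and was also higher in Ly6Clow and NK cell-like cells. Its part in the *Fn1* ratios of these 3 classes was not tested. T cell-like cells had 0 of 2, against 3.45% and 0.575%, and in B cell-like cells no member reached 50 UMIs, where 1.82% of genes were higher and 1.16% lower. Some members reached that limit mainly through the AdipoΔ/Δ library. *Mmp12* had 0 and 114 UMIs in *Folr2* cells and 0 and 199 in cells without a subset, and *Fn1* 11 and 46 in Ly6Clow cells. The counts and medians of the members therefore rest in part on the limit itself.

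**Figure D4:**
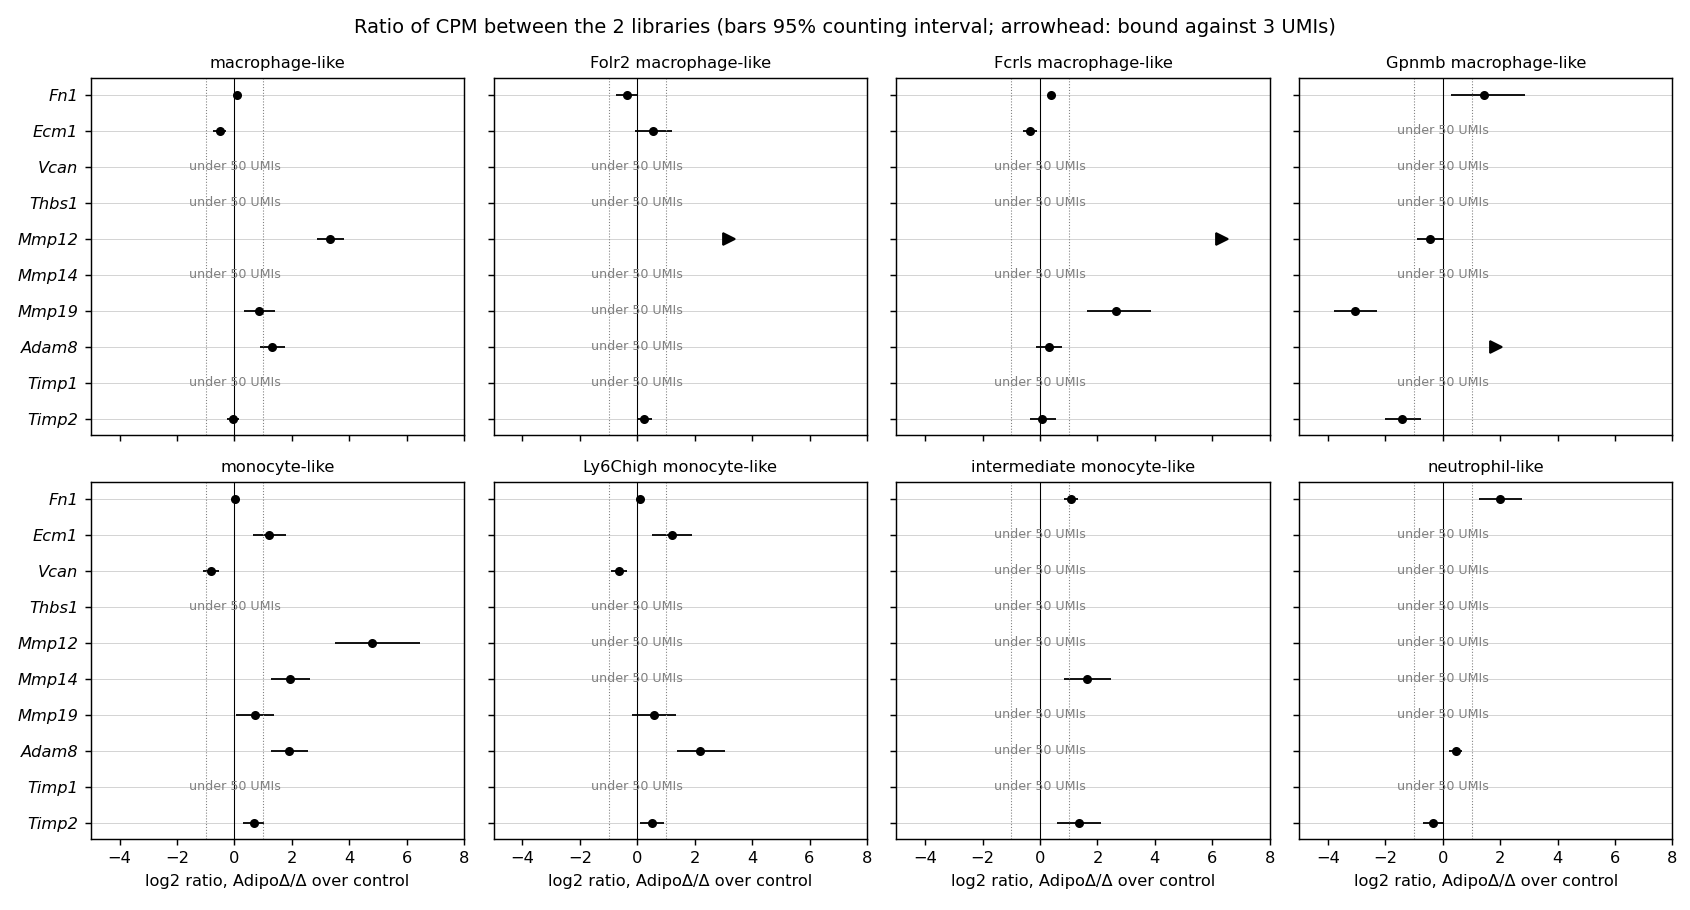
Log2 ratio of CPM, AdipoΔ/Δ over control, of the 10 genes in 8 classes or groups of classes, with 95% counting intervals as bars and dotted lines at 2-fold. Arrowheads mark lower bounds against 3 UMIs where the control had none (80.2-fold for *Mmp12* in *Fcrls* cells), and genes with under 50 UMIs over both libraries are written as such.

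Levels within classes and the sizes of the classes entered the whole-library values differently for each gene. When the control levels of each class were kept and the classes were given their share of UMIs in the AdipoΔ/Δ library, *Ecm1* was 3.51-fold higher, close to the measured whole-library ratio of 3.50. *Timp2* was then 2.62-fold higher, against a measured 2.15, and *Vcan* stood at 0.459, against 0.355. With class sizes held at the control and levels taken from the AdipoΔ/Δ library, *Ecm1* was 1.30-fold and *Timp2* 1.07-fold higher. *Mmp14* and *Adam8* showed the reverse order, at 0.644 and 0.889 with the sizes exchanged and 3.93 and 1.66 with the levels exchanged, against measured ratios of 3.23 and 2.19. *Fn1* (measured 1.94) stood at 1.42 and 1.27, and *Mmp12* (measured 51.9) at 28.4 and 11.2. The *Gpnmb* class held 0.286% of the UMIs in the control and 10.2% in the AdipoΔ/Δ library. Its 13 control cells stood at 1367 CPM for *Mmp12*, 651 CPM for *Mmp19* and 814 CPM for *Timp2*. The values with exchanged sizes therefore rest mainly on these 13 cells for *Mmp12* and *Mmp19*, and in part for *Timp2*.

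**Figure D5:**
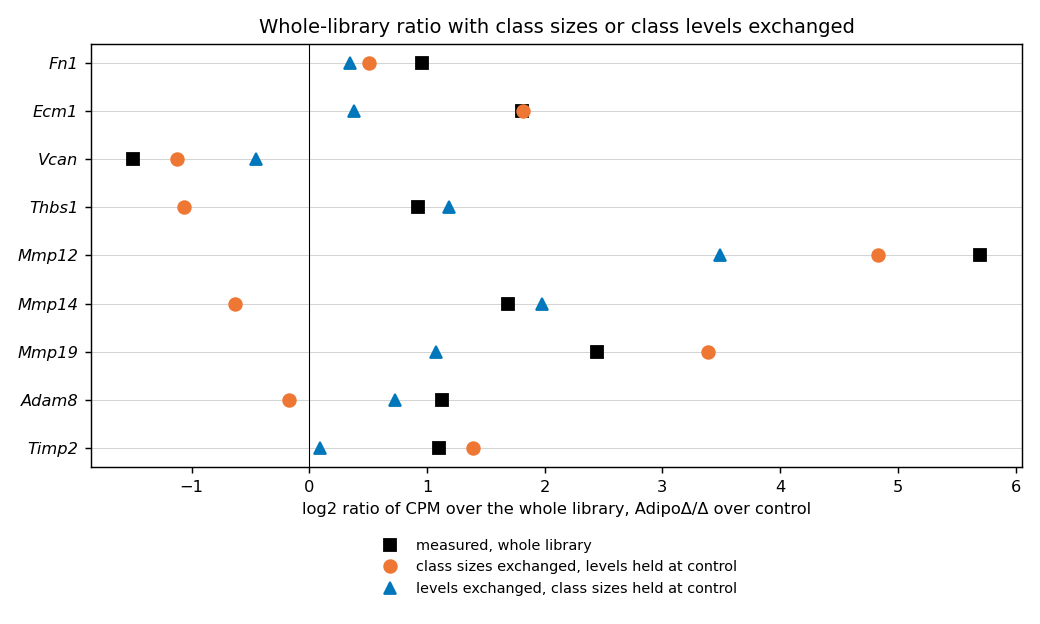
Log2 ratio of whole-library CPM, AdipoΔ/Δ over control (x axis), of 9 genes as measured (squares), with only the class sizes exchanged (circles) and with only the class levels exchanged (triangles). *Timp1* is left out since it had no UMI in the control. For *Ecm1* the circle lies on the square (3.51 and 3.50), and for *Mmp14* the triangle is nearest to it (3.93 and 3.23).

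Counted together, the members' UMIs shifted between classes. *Fcrls* macrophage-like cells held 18.0% of all member UMIs in the control and 52.0% in the AdipoΔ/Δ library, and Ly6Chigh monocyte-like cells 58.8% and 12.6%. Most of these UMIs were *Fn1*, at 1227 of 1501 and 7804 of 10450 in *Fcrls* cells, so these shares mainly repeat those of *Fn1*. The shares of all UMIs moved the same way, at 2.57% and 12.0% in *Fcrls* cells and 24.1% and 10.8% in Ly6Chigh cells. At least 3 members had a UMI in 57.1% of the control and 74.4% of the AdipoΔ/Δ *Fcrls* cells, at median depths of 3998 and 5866 UMIs. In the *Gpnmb* class the shares were higher, at 61.5% of 13 control cells and 82.8% of 87 AdipoΔ/Δ cells, at 1348 and 11934 UMIs. Over 26 combinations of class and library with at least 20 cells, the member pairs with the highest Pearson correlation of log2(CPM + 10) were *Mmp12* with *Mmp19* (0.82), *Ecm1* with *Mmp19* (0.80), *Fn1* with *Mmp19* (0.77) and *Fn1* with *Ecm1* (0.76). *Vcan* was nearest to *Thbs1* (0.59), and stood at 0.02 against *Ecm1* and -0.05 against *Mmp12*. The points share 2 libraries and their depths.

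Among 7899 genes with at least 200 UMIs, the genes most like *Fn1* over the same points were *Myof* (0.86), *Socs6* (0.85) and *Ccl9* (0.84). *Ecm1* was most like *Plxna1* (0.91), *Gm10134* (0.90) and *Lyz1* (0.90), the last a marker used to name the *Fcrls* class. *Mmp12* and *Mmp19* had *Ccl2*, a monocyte chemoattractant, as the nearest gene (0.86 and 0.91), followed by *Vat1* (0.83) and *Mmp19* for the first and *Myof* (0.87) and *Nrp2* (0.87) for the second. *Vcan* was nearest to *Prtn3* (0.88), *AI839979* (0.83) and *Slfn5* (0.77), and *Thbs1* to *Smox* (0.76), *Trim30d* (0.75) and *Clec5a* (0.75). *Mmp14* was nearest to *Clec4n* (0.83), *Tgm2* (0.72) and *Bcl2a1b* (0.71), and *Adam8* to *Lilr4b* (0.89), *Fem1c* (0.80) and *Map2k3* (0.78). *Timp2* followed *Dhrs3* (0.87), *Cd14* (0.84) and the complement gene *C1qc* (0.83), and *Timp1*, at a handful of UMIs, *Amdhd2*, *Clec4n* and *Cstb* (0.67 each).

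The same pathway was read through 68 further genes in 5 lists. Of 19 other matrix genes, 3 had at least 50 UMIs in macrophage-like cells, and *Spp1*, which encodes osteopontin, was at least 2-fold higher in the AdipoΔ/Δ library, from 0 UMIs in the control to 154 CPM. *Tgfbi* and *Fgl2* were not past 2-fold (436 to 415 CPM and 98.2 to 55.1 CPM), though *Tgfbi* was at least 2-fold higher within the *Gpnmb* class. In monocyte-like cells *Spp1* had 2 UMIs in the control and 49 in the AdipoΔ/Δ library, a ratio of 44.3 (11.6 to 376), and it was the 1 of 3 genes past 2-fold there. Of 15 other proteases, 8 could be compared in macrophage-like cells. *Mmp13* (2 and 54 UMIs, ratio 4.30, 1.13 to 36.4) and *Plau*, which encodes urokinase (20.7 and 42.8 CPM, 2.07, 1.15 to 4.09), were at least 2-fold higher. Within the *Gpnmb* class *Plau* was not past 2-fold. The gelatinase gene *Mmp9* was at least 2-fold lower, at 131 and 35.6 CPM (0.272, 0.204 to 0.366), and *Adam15* (276 and 218 CPM) and *Adam10* (105 and 98.7 CPM) had the highest levels over both libraries. In monocyte-like cells 6 other proteases could be compared, and 0 were past 2-fold.

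Of 10 other inhibitors, 3 could be compared in macrophage-like and 4 in monocyte-like cells. *Cst3*, which encodes cystatin C, and *Serpinb6a* were the highest in macrophage-like cells, at 2322 and 2142 CPM and at 111.96 and 192 CPM. *Slpi*, an inhibitor of neutrophil elastase, was at least 2-fold lower in macrophage-like cells (36.2 and 8.22 CPM, 0.227, 0.126 to 0.418) and in monocyte-like cells (165 and 74.1 CPM, 0.448, 0.377 to 0.531), and *Serpinb6a* was higher in monocyte-like cells (2.20, 1.49 to 3.25). In the control the neutrophil marker *S100a8* stood at 1353 CPM in *Folr2* cells, against 53.4 CPM in the AdipoΔ/Δ library, and its part in *Slpi* and *Mmp9* was not tested. Of 16 matrix receptors, 14 could be compared in macrophage-like cells. *Itga6* (1 and 60 UMIs, 9.55, 1.65 to 383) and *Itgav* (31.0 and 62.2 CPM, 2.01, 1.24 to 3.45) were past 2-fold, and *Cd44*, the hyaluronan receptor (317 and 399 CPM), and *Sdc3* (351 and 349.98 CPM) had the highest levels. Among the 12 receptors compared in monocyte-like cells, the syndecan genes *Sdc4* (1.69 and 36.6 CPM, 21.7, 10.1 to 55.6) and *Sdc3* (2.07, 1.77 to 2.42) were past 2-fold. Of 8 cross-linking enzymes, 5 could be compared in each group and 0 were past 2-fold in monocyte-like cells. *P4ha1* (2.80, 1.38 to 6.62) and *Tgm2* (2.16, 0.883 to 6.88) were past 2-fold in macrophage-like cells, and *F13a1*, which encodes coagulation factor XIII A, was the highest, at 811 and 560.5 CPM, with *Plod3* next at 49.95 and 55.6 CPM. Within the *Gpnmb* class *P4ha1* was not past 2-fold, and *Tgm2* could not be compared.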

How the data were processed

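BAT CD45+ cells of 1 control and 1 AdipoΔ/Δ library were analysed. Per the labels, Cell Ranger 4.0.0 and mm10 were used, and the authors deposited whole-number UMI counts with no scaling, in total 11327187 and 12028844 UMIs over 2597 and 2381 barcodes. A barcode was taken as a cell when 200 or more genes were detected and no more than 10% of its UMIs were mitochondrial. The study's limit of 2% would keep 51.4% and 37.7% of the barcodes. No doublet caller was run.

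Counts were normalized with SCTransform (sctransform 0.4.2), integrated in Seurat 5.3.0 (R 4.3.3) on 1967 of 2000 features, leaving out the members and other matrix genes, and clustered into 18 clusters (20 components, resolution 1.0). A cluster was named from marker lists by a mean score of at least 0.3, with at least 3 markers in at least 10% of its cells, and macrophage subsets by at least 0.5. These thresholds were set after the data were seen, and class sizes may differ from the study's because the names were rebuilt. The unnamed clusters held 75 and 105 cells.

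CPM carry exact Poisson intervals, shares of cells Clopper-Pearson intervals and ratios conditional binomial intervals (SciPy 1.17.1, Python 3.11.15), which treat UMIs as independent. Ratios were counted for genes with at least 50 UMIs, and a count of 0 was set to 3 UMIs for bounds. The formulas were tested on simulated Poisson counts. Such counts lack the gathering of UMIs in 1 cell seen here, so the test does not show that the intervals are wide enough. Named genes are all members, and of each other list the 2 highest in macrophage-like cells and up to 6 genes past 2-fold in macrophage-like or monocyte-like cells. *Fgl2*, *S100a8*, *C1qa* and *Ccr2* were named after their values were seen. The 3 genes most like each member and marker genes are also named. The members and lists were chosen with earlier results of these data known. The closing section gives the results under 11 other settings and 2 more chosen after seeing the data.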

Additional observations from a re-analysis of the deposited data

Results flagged for a closer look

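*Mmp19* differed in opposite directions in a pair of macrophage-like classes, with a ratio of AdipoΔ/Δ over control of 6.29 in the *Fcrls* class and 0.119 in the *Gpnmb* class. *Timp2* had a ratio of 2.55 in intermediate monocyte-like cells and 0.375 in the *Gpnmb* class. Neither difference between classes was tested, since each condition has 1 library, and both ratios of the *Gpnmb* class rest on 13 control cells.

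The 318 control and 365 AdipoΔ/Δ barcodes that the filters left out also held member UMIs. The 5 members below were picked as at least 2-fold higher in the AdipoΔ/Δ ones with intervals that did not overlap. The share of all genes past the same limits was not computed, so their number is not a result about the members. No class was named for these barcodes, and all 5 were also higher over the kept cells of the AdipoΔ/Δ library. *Fn1* stood at 476 CPM in the control and 1508 CPM in the AdipoΔ/Δ barcodes. *Timp2* stood at 152 and 424 CPM. *Ecm1* was at 34.8 and 140.4 CPM, *Mmp12* at 12.2 and 264 CPM, and *Mmp19* at 0 UMIs and 89.8 CPM.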

How the results depend on the processing

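No paired analysis was possible because each condition has 1 library. Over 11 other settings and 2 more chosen after seeing the data, 42 member ratios were recomputed 528 times. Of these values, 496 stayed on the same side of 1 and 32 did not, and 16 of the 42 ratios turned at least once. In 28 of the 32 the ratio being recomputed was under 2-fold. Among these, *Fn1* over all monocyte-like cells went from 1.02 to 0.820, *Mmp19* there from 1.64 to 0.898, and *Timp2* over all macrophage-like cells from 0.962 to 1.36. The other 4 were at least 2-fold. With a mitochondrial limit of 2%, *Fn1* stood at 0.842 in intermediate monocyte-like cells and 0.903 in neutrophil-like cells, where the ratio with all cells kept was 2.11 and 3.96. In neutrophil-like cells *Fn1* was also at 0.954 with at least 500 detected genes and at 0.986 without cells over 3 times the median UMIs of their class. The cause was not tested. The count of members at least 2-fold higher in monocyte-like cells was 2 in place of 4 with a mitochondrial limit of 5% and without integration of the libraries, and *Ecm1* was also under 2-fold with at least 500 detected genes (1.83) and at a resolution of 2.0 (1.93). The counts for macrophage-like cells were 2 or 3 higher and 0 lower under every one of these settings. At a resolution of 0.5, no *Gpnmb* or intermediate class was found, and with a mitochondrial limit of 5% or without integration no intermediate class was. With a mitochondrial limit of 2% neither a *Folr2* class nor macrophage-like cells without a subset were found. Genes with under 50 UMIs, *Thbs1* and *Timp1* above all, are limited by depth.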
